A study of Rattus norvegicus with 8 samples.

Results

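Polyadenylation sites assigned to pseudogenes were described in the hypothalamus of rats on a high fat diet and of rats on chow. The members are all sites whose gene biotype in the deposited table is pseudogene, which gave 844 of 73922 sites and 530 of 12255 genes. The sites were read by whole transcriptome termini site sequencing (WTTS-seq), in which each read marks the 3′ end of 1 polyadenylated RNA, so that reads can be compared between genes without a correction for length. The 8 libraries came from adult male Long-Evans rats. The 4 rats of the obesity group had free access to a high fat diet with 1.71 kcal/g from fat, and the 4 control rats ate standard rodent chow with 0.51 kcal/g from fat, both for 36 days. The labels name no engineered allele and give diet as the only factor between the groups.

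A pseudogene is a copy of a gene that has lost, or is annotated as having lost, the ability to encode the full protein. Processed pseudogenes arise when a messenger RNA is copied back into DNA and inserted elsewhere in the genome, and they are drawn mainly from genes that are strongly transcribed, such as those of ribosomal proteins, chaperones and translation factors. Unprocessed pseudogenes are decayed duplicates, for example of olfactory and vomeronasal receptors. A transcribed copy can resemble its parent closely enough that a short read from one may be assigned to the other.

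For some copies, similarity to the parent at the 5′ end is shown by the sequence around 4 transcription starts. Reads lie at 3′ ends, so these windows do not show how similar the copies are where reads were counted. RefSeq windows on the GRCr8 assembly, which reach from 250 bases before to 50 bases after a start, were at hand for both members of 19 of the pseudogene and parent pairs described below, and in current RefSeq all 19 of these copies carry a protein-coding biotype. Local alignment of each copy with its parent gave a score of at least 20 in 10 of the 19, with 85.3% to 100% identical bases. In 8 of the 10 the similarity began no more than 20 bases before the annotated start. The other 9 copies, among them Rpl5l1 and Rpl24l2, scored below 20, and the 4 shown are taken from the 10. The lines below run 5′ to 3′ from 20 bases before the start of the copy to 40 bases after it, and capitals mark bases that are identical to the parent in the alignment. They are shown because the copies of Luc7l3 (the most abundant member here), Tmsb4x and Dctn3 change from unrelated sequence to near identity close to the start, while the copy of Epc2 matches its parent upstream of the parent's start.
Luc7l3-ps2 (LOC688867), chr5:54449685-54449744, plus strand: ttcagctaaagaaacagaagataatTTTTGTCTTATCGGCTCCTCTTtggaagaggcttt
Tmsb4xl2 (LOC103692338), chr5:62115554-62115613, minus strand: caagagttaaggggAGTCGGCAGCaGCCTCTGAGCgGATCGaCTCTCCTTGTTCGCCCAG
Dctn3l1, chr1:7347859-7347918, minus strand: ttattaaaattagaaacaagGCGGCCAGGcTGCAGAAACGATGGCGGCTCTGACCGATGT
Epc2l1, chr1:91062328-91062387, minus strand: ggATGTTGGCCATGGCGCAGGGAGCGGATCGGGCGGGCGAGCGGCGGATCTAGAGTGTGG

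In Luc7l3-ps2 22 of 22 aligned bases were identical, from base 6 to base 27 of the copy, against bases 29 to 50 of Luc7l3, where the parent's window ended. In Tmsb4xl2, a copy of the gene for the actin-binding peptide thymosin beta 4, 44 of 47 aligned bases were identical. In Dctn3l1, a copy of the gene for a dynactin subunit, the figure was 45 of 47, and the alignment began at base 1. In Epc2l1 66 of 66 bases were identical, and they lay from -181 to -116 relative to the start of Epc2.

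Library depth ranged from 1417531 to 1957726 reads. All 10 hypothalamic markers that were looked for (Avp, Oxt, Pmch, Hcrt, Pomc, Agrp, Cartpt, Sim1, Trh and Gal) had reads, and their summed level was 1213 to 1657 CPM (reads scaled to the size of the library, with edgeR's TMM factors) in the control libraries and 1006 to 1287 CPM in the obesity libraries. Markers of neighbouring tissue varied as well. The 3 measured of 5 anterior pituitary markers summed to 17.9 to 56.0 CPM in control and 6.13 to 127 CPM in obesity, and Ttr, the only measured one of 4 choroid plexus markers, to 0.0 to 1.52 CPM in control and 0.0 to 98.0 CPM in obesity. The 3 measured of 6 red blood cell markers summed to 42.2 to 61.8 CPM in control and 21.0 to 91.2 CPM in obesity. The 4 thalamic markers summed to 129 to 219 CPM in control and 75.1 to 242 CPM in obesity, and the 5 oligodendrocyte markers to 15947 to 20987 CPM and 12457 to 19925 CPM. The part of tissue makeup in the results was not tested, and in bulk tissue fewer cells of a type and less RNA per cell cannot be told apart.

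Pseudogene sites were few per gene, close together and as well covered as other sites. They held 227690 reads, 1.71% of the total, at 1.14% of the sites. The median site had 74 reads over the 8 libraries, beside 57 at protein-coding sites and 54 at long noncoding RNA (lncRNA) sites, and 5.57% of pseudogene sites had more than 1000 reads, beside 1.82% and 2.21%. All 8 libraries had a read at 60.4% of pseudogene sites, and at 55.2% of all sites. The lowest total of any site in the table was 30 reads, so sites below that level are not described here.

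**Figure D1:**
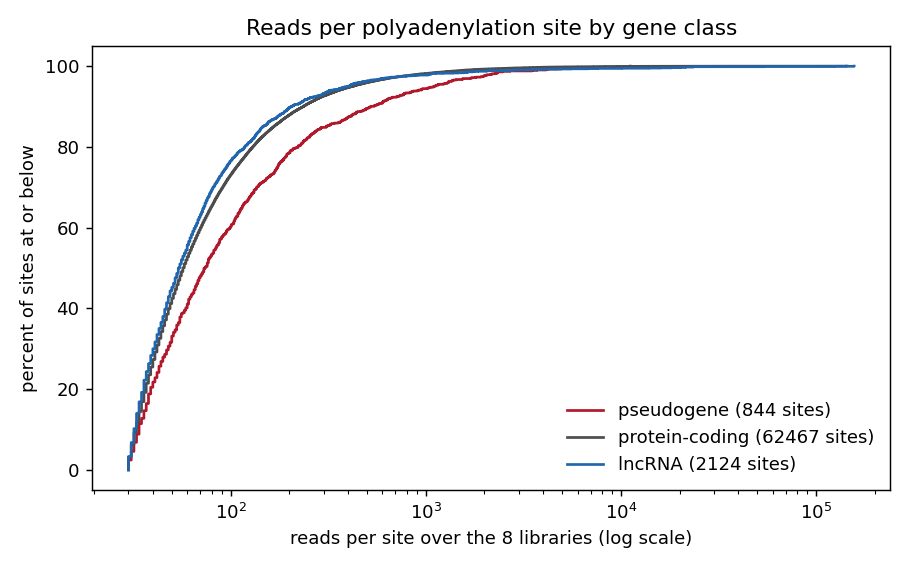
Cumulative percent of sites (vertical axis) with at most the number of reads on the horizontal log axis, summed over the 8 libraries, for pseudogene (844), protein-coding (62467) and lncRNA (2124) sites. The pseudogene curve lies to the right of the others over most of the range, with a median of 74 reads per site.

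Of the 530 pseudogenes, 368 had a single site on the strand with most of their reads, which is 69.4%, beside 31.2% of protein-coding genes and 56.2% of lncRNA genes. A further 91 had 2 sites and 71 had 3 or more. Among the 162 with several sites, the outermost sites were a median of 504 bases apart, beside 20364 bases for protein-coding and 5589 bases for lncRNA genes with several sites. The site with the most reads held a median of 60.5% of a pseudogene's reads, and it was the most 3′ site in 34.6% of these pseudogenes and in 35.4% of protein-coding genes. Reads on the other strand of a pseudogene were rare, with 7 sites in 6 pseudogenes.

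Pseudogenes were found on all 20 numbered chromosomes and on X. Chromosome 1 held 70 and X held 39, and on X they made up 9.20% of the 424 measured genes, beside 4.65% of 1505 on chromosome 1 and 2.63% of 949 on chromosome 10. The sites of 92 pseudogenes (17.4%) lay between sites of a protein-coding gene on the same strand, with a median of 70.5 reads per pseudogene. Another 23 lay between sites of a protein-coding gene on the opposite strand only, with a median of 235 reads. The other 415, with a median of 111 reads, were not flanked by measured sites of such a gene. Gene boundaries were not used, so the 415 may include pseudogenes within a gene whose measured sites did not flank them. Ncl-ps1, a copy of the gene for nucleolin, a nucleolar protein of ribosome assembly, lay between sites of Usp54, and Pnn-ps1 (LOC498628) between sites of Gpm6a. For such pseudogenes reads from the surrounding gene cannot be told apart from reads of the copy.

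Reads were concentrated in a few pseudogenes. The 10 most abundant held 38.5% of all pseudogene reads and the 50 most abundant held 67.3%. In contrast, 257 of the 530 had fewer than 100 reads in the 8 libraries together, and 163 had no read in at least 1 library. In 22 pseudogenes (4.15%) more than 50% of the reads came from 1 library, beside 1.41% of all genes.

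The most abundant was Luc7l3-ps2 (LOC688867), a copy of the gene for a protein associated with splicing, with 19240 reads. Its control libraries 1 to 4 had 2705, 2840, 1589 and 2269 reads and its obesity libraries 2551, 2108, 2398 and 2780 reads, and the groups overlapped. It had 8 sites within chromosome 5, 50552447 to 50553514 on the plus strand (all positions of sites are on Rnor_6.0), and the site at 50553189 to 50553305 held 55.1% of the reads. The log2 fold change of obesity against control, from edgeR's quasi-likelihood test, was 0.02 ± 0.19 (SE, n = 4 per group, Benjamini-Hochberg adjusted p = 0.997).

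Hsp90aa1-ps14 (LOC500299), a copy of the gene for the stress-inducible cytosolic HSP90 chaperone, had 11189 reads in 1 site, on chromosome 4 at 148617929 to 148618134. Reads per library were 2439, 2473, 642 and 937 in control and 1553, 1723, 709 and 713 in obesity. In both groups libraries 1 and 2 were high and libraries 3 and 4 low. The log2 fold change was -0.41 ± 0.51 (edgeR, adjusted p = 0.979). Hsp90aa1 itself was not analysed here.

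Eif5b-ps1, a copy of the gene for a GTPase that joins the ribosomal subunits, had 10928 reads, of which libraries numbered 1 held 2539 in control and 2129 in obesity. The other control libraries had 1382, 679 and 1053 reads and the other obesity libraries 933, 1311 and 902. Its reads were spread over 6 sites, 4 of which held 19.7% to 32.2% each. Ncl-ps1 had 10088 reads in 12 sites, the largest number of any pseudogene, and its most 3′ site held 41.8%. Per library it had 1591, 1175, 748 and 1253 reads in control and 1518, 853, 1348 and 1602 in obesity, which overlap.

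Calm2-ps2 (Calm-ps2 in the table), a copy of a gene for the calcium sensor calmodulin, had 7810 reads. Per library it had 1158, 859, 970 and 1335 reads in control and 767, 514, 998 and 1209 in obesity, and 1 of its 6 sites held 96.1%. In CPM it was lower in the obesity library than in the control library of the same number for all 4 numbers, while the groups overlapped. The log2 fold change was -0.41 ± 0.23 (edgeR, adjusted p = 0.921).

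Also among the 10 were LOC108351808 with 6717 reads in 1 site and Sdccag1-ps1 with 6375. So were Rpl5l1 (protein-coding in current RefSeq) with 5351 and Eif4b-ps3 (LOC367757) with 4382. Sdccag1 is an older name of Nemf, a factor of ribosome quality control, Rpl5 encodes a protein of the large ribosomal subunit and Eif4b assists the helicase of translation initiation. Their log2 fold changes lay between -0.32 (Eif4b-ps3) and 0.15 (LOC108351808 and Sdccag1-ps1), with edgeR adjusted p of 0.982 to 0.983. In LOC108351808 obesity library 3 was highest with 1447 reads, and the remaining libraries had 519 to 1101.

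**Figure D2:**
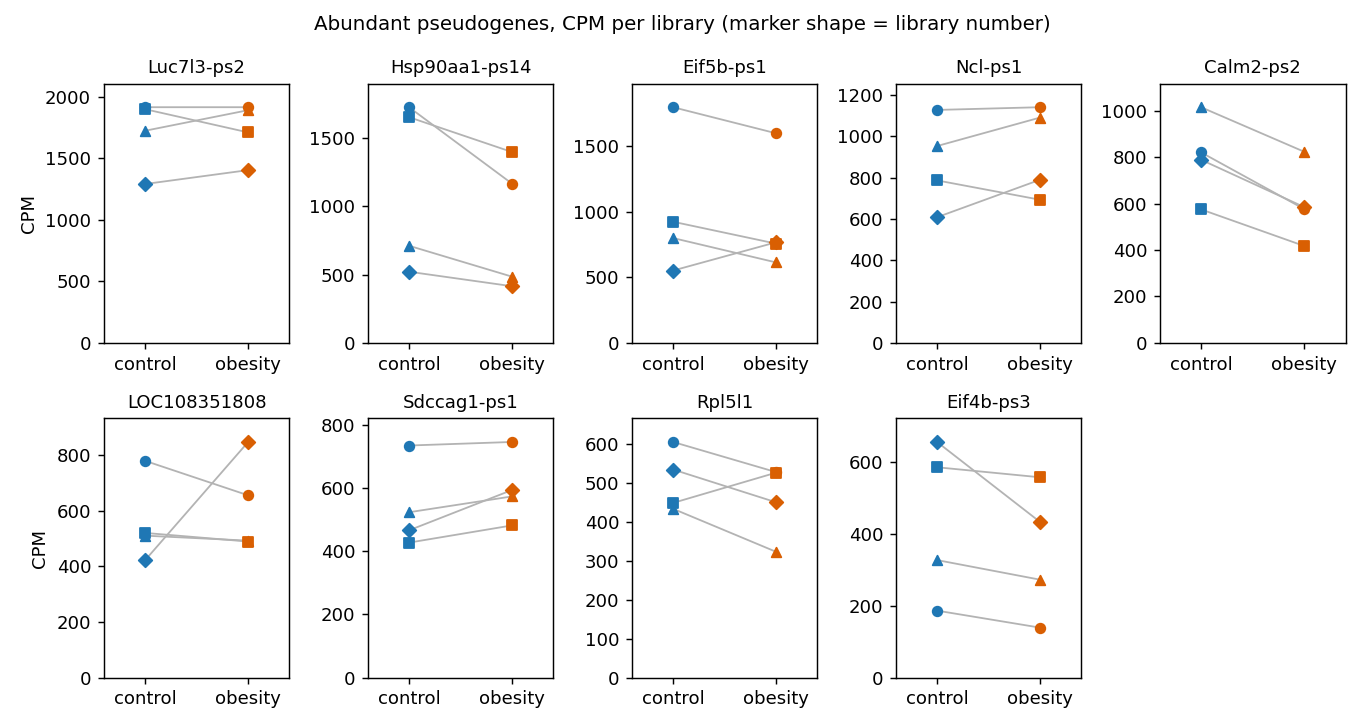
Level in CPM (vertical axis, from 0) of 9 of the 10 pseudogenes with most reads in each control (blue) and obesity (orange) library, with lines joining libraries of the same number and a marker shape for each number. In all 9 panels the groups overlap, and in Hsp90aa1-ps14 the libraries numbered 1 and 2 lie above those numbered 3 and 4 in both groups.

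For 307 pseudogenes the symbol in the table or the current RefSeq symbol named a parent gene, and for 232 of them that parent was measured. These 232 pairs involved 186 parents, of which Npm1, the gene for the nucleolar chaperone nucleophosmin, had 6 copies and Hdac1, a histone deacetylase gene, had 4. For the other 75 pseudogenes, 17 of them copies of ribosomal protein genes, the named parent was not analysed here. The median pair had 0.255 pseudogene reads per parent read, with quartiles of 0.0806 and 0.781. In 65 pairs the ratio was under 0.1, and in 46 (19.8%) the pseudogene had more reads than its parent.

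Pairs with more pseudogene than parent reads included 16 of 39 ribosomal protein pairs and 30 of 193 other pairs, with median ratios of 0.437 and 0.237. In 6 pairs the pseudogene had more than 10 reads for each read of the parent, and 4 of these copied ribosomal protein genes of the large subunit. Rpl23al9 (LOC108352551) had 2188 reads beside 31 for Rpl23a. Rpl24l2 (LOC688470, protein-coding in current RefSeq) had 2061 beside 32 for Rpl24. Rpl6-ps1 had 1421 reads beside 72 for Rpl6, and Rpl26-ps2 had 551 beside 30 for Rpl26. The remaining 2 were Gnl3-ps1 (LOC499475), with 1354 reads beside 30 for the nucleolar GTPase gene Gnl3, and Srp72-ps1, with 1843 beside 47 for Srp72, which encodes a subunit of the signal recognition particle. Each of these 6 parents had a single site in the table, with 30 to 72 reads, where the lowest total of any site was 30. Parent sites below that level are not counted, so these 6 ratios may be too high. Without the 33 pairs whose parent had under 100 reads, 26 pairs had more pseudogene than parent reads. How these 26 divide into ribosomal protein and other pairs is not given.

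The abundant copies differed from their parents less. Luc7l3-ps2 had 3.33 reads for each of 5774 Luc7l3 reads, Eif5b-ps1 7.08 for each of 1544 Eif5b reads and Calm2-ps2 2.14 for each of 3644 Calm2 reads. Ncl-ps1 (10088 reads) and Ncl (11240 reads) were close to each other. Hsp90ab1-ps13 (LOC363224) had 3110 reads beside 43615 for Hsp90ab1, the constitutive cytosolic HSP90 gene. How the authors treated reads that match several places is not given in the sources used here, so the division of reads between a copy and its parent is uncertain in every pair.

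**Figure D3:**
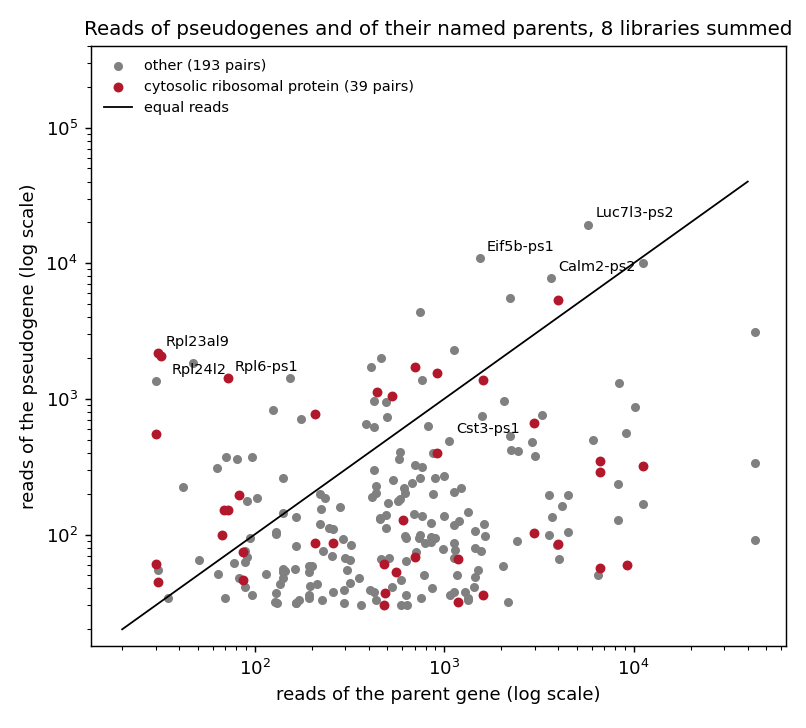
Reads of each pseudogene (vertical log axis) against reads of its named parent (horizontal log axis), summed over the 8 libraries, for 39 ribosomal protein pairs (red) and 193 other pairs (grey), with the line of equal reads. The 46 pairs above the line include Luc7l3-ps2, Eif5b-ps1 and, at the left edge, Rpl23al9, Rpl24l2 and Rpl6-ps1.

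The share of reads at pseudogene sites was compared between the diets with 1 value per library. In library order it was 1.98%, 1.92%, 1.69% and 1.69% in control, beside 1.60%, 1.77%, 1.53% and 1.51% in obesity. The means were 1.82% ± 0.151 (SD, n = 4) and 1.60% ± 0.119 (SD, n = 4), a difference of -0.220 percentage points. Each obesity library was lower than the control library of the same number, but the groups overlapped, as obesity library 2 lay above control libraries 3 and 4. The difference was -0.218 without Luc7l3-ps2, the most abundant pseudogene, and -0.261 when mitochondrial reads were left out of the total. It was -0.220 when only reads assigned to genes made up the total. For the share of all reads, an exact permutation test over the 70 arrangements of the labels gave p = 0.0857 (n = 4 per group). For the share of reads assigned to genes, the exact permutation test gave p = 0.171 (n = 4 per group). Neither exact permutation test gave a p under 0.05.

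The number of pseudogene sites with at least 1 read was 705, 809, 801 and 811 in control and 728, 781, 764 and 771 in obesity, with means of 782 ± 51.2 and 761 ± 23.1 (SD, n = 4). The groups overlapped, and the difference of -20.5 sites was -22.5 sites after all libraries were thinned to 1417531 reads. Without thinning, the exact permutation test gave p = 0.457. The libraries numbered 1 had the fewest sites in each group. They also had reads at the fewest sites of the whole table, 80.0% in control and 85.6% in obesity, beside 91.0% to 94.5% in the other libraries.

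**Figure D4:**
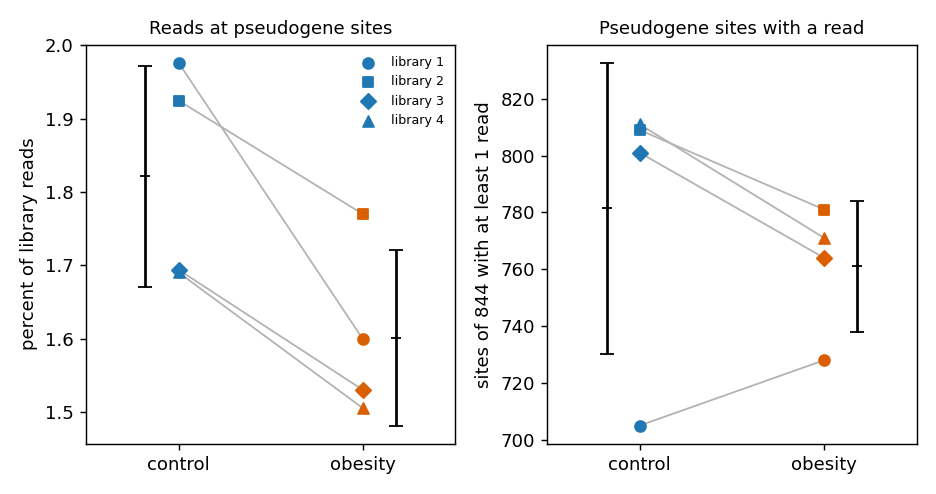
Left, percent of library reads at pseudogene sites. Right, number of the 844 pseudogene sites with at least 1 read. Points are libraries of the control (blue) and obesity (orange) groups, lines join libraries of the same number, bars beside them are mean ± SD (n = 4), and the vertical axes do not start at 0. On the left the obesity point is the lower one on all 4 lines, while on the right library 1 has 705 sites in control and 728 in obesity.

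The question of the design was whether diet changed the level of single sites. In edgeR's quasi-likelihood test over all 73922 sites, 0 of 844 pseudogene sites passed an adjusted p of 0.1, beside 0.00135% of all sites tested, and DESeq2 also called 0. At an unadjusted p under 0.05, 20 pseudogene sites (2.37%) were lower and 7 (0.829%) higher in obesity, beside 1.41% lower and 1.72% higher of all sites. The median log2 fold change was -0.17 over pseudogene sites and 0.05 over all sites, and 59.2% of pseudogene sites had a fold change below 0, beside 47.6% of all. Without obesity library 2, 60 pseudogene sites (7.11%) were lower and 5 (0.592%) higher at that unadjusted threshold, beside 3.14% lower and 2.38% higher of all sites.

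Summed per gene, the picture was similar. By edgeR, 0 of 530 pseudogenes passed an adjusted p of 0.1, beside 0.0% of all 12255 genes, and DESeq2 called 0 pseudogenes. At an unadjusted p under 0.05, 12 pseudogenes (2.26%) were lower and 5 (0.943%) higher, beside 2.58% lower and 2.54% higher of all genes, so that the share of lower pseudogenes was close to the background. The median log2 fold change was -0.14 over the 530 pseudogenes, of which 58.3% lay below 0, and 0.00 over all genes, of which 49.9% lay below 0. It was -0.01 over the 8036 protein-coding genes whose reads lay between the 10th and 90th percentile of the pseudogenes. Without obesity library 2, 39 pseudogenes (7.36%) were lower and 3 (0.566%) higher at the unadjusted threshold, beside 5.52% and 4.19% of all genes. A total of 311 pseudogenes had enough reads for edgeR's filter on low counts, and their median was -0.12.

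Libraries of the same number varied together. With library number as a blocking term, edgeR called 5 pseudogenes at an adjusted p under 0.1, all lower in obesity (0.943% of 530), beside 0.277% of all genes called and 0.22% called lower. It called 0 pseudogene sites, beside 0.00541% of all sites. At an unadjusted p under 0.05 it had 45 lower (8.49%) and 10 higher (1.89%) pseudogenes, beside 6.16% and 4.76% of all genes, and 60 lower (7.11%) and 10 higher (1.18%) pseudogene sites, beside 3.31% and 2.79% of all sites. Hsp90ab1-ps13, Eif4g2-ps1, Rpl6-ps1 and Rps9-ps15 were among the 5. Without the block the edgeR adjusted p was 0.921 to 0.942 for all 5. Leaving out both libraries of 1 number moved the count to 6 without number 1 (1.13%), 26 without number 2 (4.91%), 1 without number 3 (0.189%) and 0 without number 4 (0.0%). The same fits called 0.53%, 4.59%, 0.0653% and 0.0% of all genes, so that without number 2 the share of pseudogenes was close to the background. These sets shared 4, 5, 1 and 0 pseudogenes with the 5. Of the pseudogene sites they called 1 (0.118%) without number 1, 10 (1.18%) without number 2 and 1 (0.118%) without number 3 or 4, beside 0.00541%, 0.495%, 0.0365% and 0.023% of all sites.

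Hsp90ab1-ps13 had 880, 504, 261 and 294 reads in control and 508, 336, 200 and 127 in obesity. Its blocked log2 fold change was -0.80 ± 0.16 (edgeR, adjusted p = 0.0606). Hsp90ab1 had a log2 fold change of -0.56 ± 0.34 without the block (edgeR, adjusted p = 0.928), so that copy and parent had the same sign.

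Eif4g2-ps1, a copy of the gene for a scaffold protein of translation initiation, had 424, 536, 74 and 276 reads in control and 200, 256, 71 and 165 in obesity. The groups overlapped because control library 3 was lower than 3 of the obesity libraries, and the blocked log2 fold change was -0.82 ± 0.17 (edgeR, adjusted p = 0.0606). Rpl6-ps1 had 150, 278, 314 and 172 reads in control and 72, 217, 126 and 92 in obesity, with a blocked log2 fold change of -0.97 ± 0.22 (edgeR, adjusted p = 0.0803). Its obesity library 2 stood at 176 CPM and the other obesity libraries at 54.1 to 73.8 CPM.

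Rps9-ps15 (LOC501835), a copy of a small-subunit ribosomal protein gene, had 90 reads in control library 3 and 0 in each of the other 7 libraries. Its blocked call (edgeR, adjusted p = 0.0606) thus rests on 1 library, and no fold is given. A count of 0 allows up to 3 reads in each of those libraries.

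Other pseudogenes were named because the CPM of the groups did not overlap and the unadjusted p was under 0.05, with a mean of at least 10 reads per library. The rule took 1 pseudogene with a higher level and 5 with a lower level. Over all 530 pseudogenes, 1 was higher (0.189%) and 9 lower (1.70%) in all obesity libraries than in every control library, beside 1.68% and 1.77% of all genes. Their adjusted p was 0.921 in edgeR for all 6, so none passed the test.

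Cst3-ps1 (LOC102555399), a copy of the gene for the protease inhibitor cystatin C, had 31, 47, 48 and 23 reads in control and 128, 71, 78 and 67 in obesity. The log2 fold change was 1.15 ± 0.35 (edgeR, SE, adjusted p = 0.921). Cst3 itself had 235, 217, 45 and 153 reads in control and 138, 151, 34 and 91 in obesity, with a log2 fold change of -0.60 ± 0.55 (edgeR, adjusted p = 0.961). Of the 2 sites of Cst3-ps1, the more 5′ one had 10, 1, 12 and 5 reads in control and 61, 32, 21 and 30 in obesity, a log2 fold change of 2.2 ± 0.66 (edgeR, adjusted p = 1.0).

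LOC100363803, with 1 site on chromosome 13 at 48674530 to 48674544, had 54, 43, 30 and 27 reads in control and 8, 14, 9 and 14 in obesity. Its log2 fold change of -1.80 ± 0.44 had the smallest unadjusted p of the lower pseudogenes (edgeR, adjusted p = 0.921, and 0.103 with the block). Hsp90aa1-ps2 (LOC365050) had 66, 49, 35 and 35 reads in control and 17, 27, 21 and 28 in obesity, a log2 fold change of -1.03 ± 0.37. Rwdd-ps1 (LOC102556301) differed by -0.83 ± 0.31 and LOC100912402 (protein-coding in current RefSeq) by -1.33 ± 0.54 on the same scale. LOC100912402 had 111 reads in all and lay between sites of Rgs6 on the same strand. Reads of Rgs6 cannot be told apart from its own. In Naa38-ps1 (LOC685876), a copy of the gene for a subunit of an N-terminal acetyltransferase, the log2 fold change was -0.67 ± 0.27, while Naa38 stood at -0.06 ± 0.25.

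**Figure D5:**
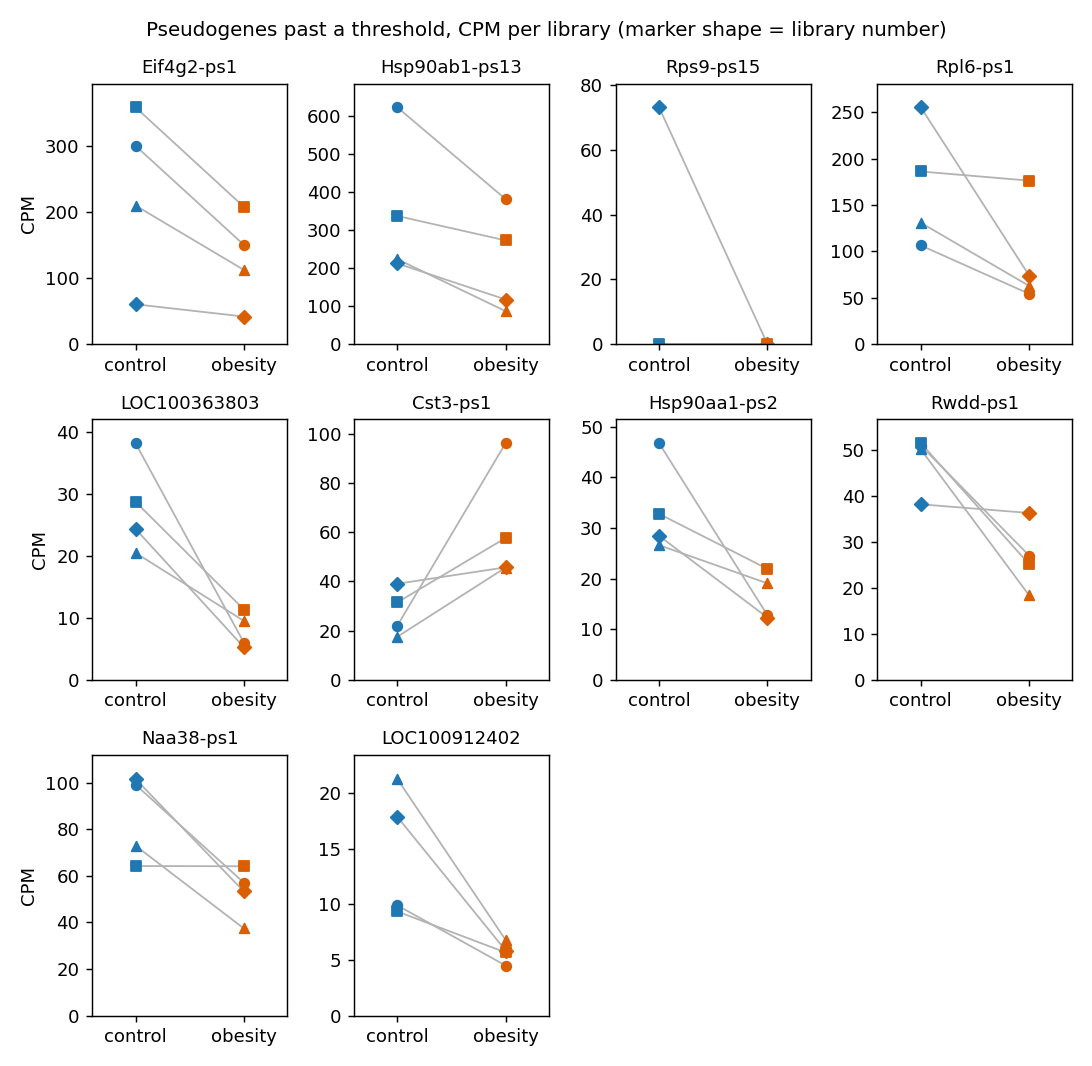
Level in CPM (vertical axis, from 0) in each control (blue) and obesity (orange) library of 4 pseudogenes called with the library number as a block (Eif4g2-ps1, Hsp90ab1-ps13, Rps9-ps15 and Rpl6-ps1) and of the 6 without overlap between the groups. Lines join libraries of the same number, and Rps9-ps15 has reads in control library 3 only.

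Among single sites, 1 higher and 6 lower ones met the same rule. The higher site and the 5 lower sites with the smallest p were taken. Besides those of Cst3-ps1, LOC100363803 and Rwdd-ps1, they were sites of LOC103691297, Prrc2c-ps2 (LOC689980) and Wbp4-ps1 (LOC100361436). The Prrc2c-ps2 site had 28, 27, 14 and 9 reads in control and 7, 6, 3 and 3 in obesity, and its log2 fold change of -2.06 ± 0.64 did not pass the test (edgeR, adjusted p = 1.0). The second site of LOC103691297 had 60, 62, 30 and 45 reads in control and 24, 19, 21 and 20 in obesity. In total 4 pseudogene sites were higher (0.474%) and 18 lower (2.13%) without overlap, beside 1.43% and 1.69% of all sites.

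The use of sites within a pseudogene was tested in the 162 with several sites. By edgeR 0 passed an adjusted p of 0.1, beside 0.0% of all 7996 genes tested, and 2 had an unadjusted p under 0.05 (1.23%), beside 1.39% of all genes. With the block 0 passed, beside 0.0125% of all genes, and 3 (1.85%) had such an unadjusted p, beside 2.79%. One of the 2 without the block was RGD1565361 (adjusted p = 1.0 by edgeR), which has 7 sites on chromosome 4. Counted from the 5′ end, its site 2 had 78, 42, 13 and 41 reads in control and 48, 35, 23 and 7 in obesity, which overlap. Its site 3 held 7.32% to 16.7% of the pseudogene's reads in control and 0.0% to 4.26% in obesity, without overlap in this percent. Its site 5 had 0, 4, 2 and 3 reads in control and 24, 18, 5 and 19 in obesity, without overlap between the groups.

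The ratio of pseudogene to parent reads was compared in the 232 pairs, with 0.5 reads added to each count. In an exact permutation test over the 70 arrangements of the labels, whose smallest p is 0.0286, 0 pairs passed an adjusted p of 0.05, and the smallest adjusted p was 0.808. The median difference of the log2 ratio, obesity minus control, was -0.12, and it was below 0 in 135 pairs. In 6 pairs (2.59%) the groups did not overlap, with the ratio lower in obesity in 5 (2.16%) and higher in 1 (0.431%). The share of label arrangements that separate the groups fully is 0.0286. The 2.59% is close to it, so the count is not read as a change in the ratio.

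For Rpl32-ps3 and Rpl32, a large-subunit ribosomal protein gene, the log2 ratio was 1.30, 1.27, 1.04 and 1.45 in control and 0.40, 0.95, 0.73 and 0.61 in obesity. Lower ratios were also those of Clint1-ps1 (LOC317516), Srp19-ps2 (LOC102549915) and Ndufb3l2 (LOC103691697), with differences of -0.60, -0.42 and -0.72. The higher one was that of Tpt1-ps9 (LOC685130), which rests on 30 pseudogene reads in all. Each of the 6 had an exact permutation p of 0.0286 (n = 4 per group) and an adjusted p of 0.808.

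By family, 56 pseudogenes copied cytosolic ribosomal protein genes, 21 chaperone and folding genes, 13 translation factor genes, 12 genes of chromatin and histone proteins and 10 nuclear genes of oxidative phosphorylation. No member passed an adjusted p of 0.1 without the block. Of the 56 ribosomal protein copies 39 had a log2 fold change below 0, with a median of -0.33, and 2 (Rpl37a-ps3 and Rpl6-ps1) were lower and 0 higher at an unadjusted p under 0.05. The 59 other genes of that family in the table had a median of -0.33 as well, with 7 lower and 0 higher. Of all genes, 49.9% lay below 0, and 2.58% were lower and 2.54% higher at that threshold. Rpl37a-ps3 had a log2 fold change of -0.74 ± 0.25 beside -0.81 ± 0.29 for Rpl37a (edgeR, adjusted p = 0.921 for each).

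The 21 chaperone copies had a median log2 fold change of -0.41, with 1 (Hsp90aa1-ps2) lower and 0 higher at an unadjusted p under 0.05. The 75 other chaperone genes had a median of -0.14, with 2 lower. At that threshold 2.58% of all genes were lower and 2.54% higher. The 13 translation factor copies stood at -0.17 and 53 other translation factor genes at -0.12. The 10 oxidative phosphorylation copies stood at -0.25 and the 83 other genes at -0.34, while the 12 chromatin copies stood at -0.04 and their 11 relatives at -0.02. All these medians are set beside 0.00 over all genes, and no difference between families was tested.

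Smaller families had few members. The 6 vomeronasal and olfactory receptor pseudogenes had 1088 reads, of which Vom2r-ps40 held 631, and their median log2 fold change was 0.17. The 5 copies of cytoskeletal genes, among them Actb-ps9 (LOC502977) with 135 reads, had a median of -0.39. The only glycolytic copy, Aldoa-ps4 (LOC680032), had 126 reads and a log2 fold change of 1.42 ± 0.64 (edgeR, adjusted p = 0.921). The 405 pseudogenes outside these families held 156166 reads, with a median of -0.12. Of them 9 were lower and 4 higher at an unadjusted p under 0.05, beside 2.58% lower and 2.54% higher of all genes.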

How the data were processed

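WTTS-seq libraries of 4 obesity and 4 control rats were analysed. The authors deposited unnormalized read counts for each site. The labels name Bowtie2 2.2.3 and Rnor_6.0; how sites were clustered and assigned to genes is not given in the sources used here. A line holding only the total of control library 1 was left out. Members and lists were chosen with earlier results of these data known. Counts were summed per gene on the strand with most reads. edgeR 4.0.16 in R 4.3.3 (TMM, robust quasi-likelihood fits, diffSpliceDGE for site usage) was run over all sites and genes, without a filter. DESeq2 1.42.0 and a block for library number were the alternatives. The edgeR fit without the block was also run on simulated data. Those data held no effect shared by same-numbered libraries, so they are no test of the calls given here. P-values were adjusted by Benjamini-Hochberg. CPM are TMM-scaled. Library numbers come from the labels, which do not say what a number marks; deviations of same-numbered libraries correlated at 0.357 to 0.504 and of others at -0.263 to -0.0213, so the blocked fit is given where it changes a call. Of 530 pseudogenes, 349 matched RefSeq (GRCr8) through their symbols, and 50 of these are now protein-coding there. Named pseudogenes were the 10 with most reads, the 3 with most sites, those with a measured parent, those past an adjusted p of 0.1 in any fit, and up to 5 higher and 5 lower without overlap. One pseudogene that meets this rule is not reported here, though it is part of the counts.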

Additional observations from a re-analysis of the deposited data

Results flagged for a closer look

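In each group of 4 libraries, the library at either end was compared with its nearest neighbour, and a gap above Dixon's 95% critical value, as a part of the group's range, was taken as standing apart. Over 106 checks this gave 10 cases, where chance gives about 5, and several of them are the same reads counted per gene and per site.

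Control library 1 had 705 pseudogene sites with a read, and the other control libraries 801 to 811. Eif5b-ps1 stood at 1599 CPM in obesity library 1 and at 614 to 768 CPM in the other obesity libraries. Obesity library 2 stood above the rest of its group in Rpl6-ps1 (176 CPM beside 54.1 to 73.8 CPM), in the most 3′ site of Rpl6-ps1 (83.1 CPM beside 31.1 to 36.9 CPM) and in Matr3-ps1 (136 CPM beside 39.8 to 47.6 CPM). Control library 3 stood below its group in Rwdd-ps1 (38.2 CPM beside 50.2 to 51.5 CPM). It stood above its group in the site of Rpl31l4 (244 CPM beside 126 to 145 CPM) and in Rps9-ps15, at 73.1 CPM in the sum per gene and 66.1 CPM per site beside 0.0 CPM. Utp4-ps1 (LOC289953) stood at 8.70 CPM in control library 2 and at 0.0 to 0.760 CPM in the other control libraries.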

How the results depend on the processing

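Depth limits many members, since 257 of 530 pseudogenes had under 100 reads in all. With 4 libraries per group, p-values rest on the spread between these libraries only. The fits without the block do not model what libraries of the same number share. At an adjusted p under 0.1 (edgeR), 0 sites and 0 pseudogenes were called under every alternative without the library number, including each library left out. With the replicate block 5 pseudogenes and 0 sites were called. Without both libraries numbered 1, 2, 3 and 4, a choice made after seeing the data, the blocked fit called 6, 26, 1 and 0 pseudogenes, beside 65, 563, 8 and 0 of all 12255 genes, and 1, 10, 1 and 1 pseudogene sites, beside 4, 366, 27 and 17 of all 73922 sites. At an unadjusted p under 0.05 the block gave 60 lower sites, and 45 lower and 10 higher pseudogenes. Of all sites it gave 3.31% lower, and of all genes 6.16% lower and 4.76% higher. Without the numbers in turn it gave 47, 66, 46 and 36 lower and 13, 16, 16 and 14 higher sites. For pseudogenes these fits gave 39, 48, 29 and 27 lower and 10, 13, 13 and 9 higher. Shares over all sites and genes at that threshold are not given for these fits, so the counts allow no comparison with other genes. The filter on low counts left 3 higher sites, fewer sites being tested, and DESeq2 gave 8 higher pseudogenes. Leaving out 1 library gave 5 to 13 higher and 13 to 60 lower sites, 3 to 10 higher and 10 to 39 lower pseudogenes, and 1 to 4 pseudogenes with changed site usage, where the block gave 3. The highest lower counts came without obesity library 2, where 3.14% of all sites and 5.52% of all genes were lower. The cause was not tested. For the other fits without 1 library, shares over all sites and genes are not given.

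Medians stayed below 0 in all fits, from -0.27 to -0.10 over sites and from -0.21 to -0.10 over pseudogenes. The ratio to the parent passed in 0 pairs under every alternative, and without 1 library 11 to 15 pairs did not overlap, smaller groups overlapping less often by construction. The difference in the share of reads was -0.276 to -0.169 percentage points, and in sites seen -46.0 to -9.5, without 1 library. With the replicate block as an exact sign-flip over 4 pairs, p was 0.125, the smallest it can give, for the share and 0.25 for sites seen; the median of the ratio was -0.12 either way.

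Fold changes near 0 changed sign. Without 1 library the log2 fold change ranged from -0.088 to 0.11 for Luc7l3-ps2, from -0.52 to 0.30 for Eif5b-ps1, from -0.037 to 0.25 for Ncl-ps1, from -0.028 to 0.36 for LOC108351808, from -0.22 to 0.0020 for Rpl5l1 and from -0.028 to 0.22 for RGD1566227. With the block it was -0.00502 for Luc7l3-ps2 and -0.13 for LOC108351808 without number 3, and 0.021 for Eif5b-ps1 without number 4. The block changed no other call.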

Other observations

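Of the 22 pseudogenes with more than 50% of their reads in 1 library, 13 had fewer than 50 reads in all, and Atp5f1b-ps2 (LOC365654), a copy of the gene for the catalytic beta subunit of ATP synthase, had the most, with 319 of 635 reads in control library 2. Zfp808l3 (LOC108348224) had 51 of 83 reads in obesity library 1, and Fkbp1a-ps1 (LOC102557362), a copy of the gene for a peptidyl-prolyl isomerase, 44 of 66 in control library 2. The libraries concerned differed from pseudogene to pseudogene.

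LOC102552883, which lies between sites of Frmd5 on chromosome 3, had 34, 51, 32 and 46 reads in control and 92, 38, 168 and 95 in obesity, with a log2 fold change of 1.14 ± 0.34 (edgeR, adjusted p = 0.921). Obesity library 2 lay within the control range. It was called at an adjusted p of 0.00606 only in the blocked edgeR fit without both libraries numbered 2.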
